A study of Caenorhabditis elegans with 2 samples.

Results

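The gene rpr-1 (WBGene00045238) encodes the RNA subunit of RNase P in the nematode Caenorhabditis elegans. It was taken by name as 1 of 46890 annotated nuclear genes, together with all peak summits within 1000 bp of it in the 8 deposited peak lists. There were 11 such summits among 341357 peaks in the 8 lists, which overlap heavily because several were made from the same reads. The gene was chosen by the height of its peak, that is by the signals and ranks in these same lists, so its signals, ranks and position are given as a description, with no test.

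Chromatin immunoprecipitation with sequencing was carried out with an anti-GFP antibody on whole young adult worms at 65 hours, synchronised as starved L1 larvae after bleaching. The single group was strain OP808, which carries the integrated fosmid transgene wgIs808, a fusion of ceh-58 to TY1, EGFP and 3xFLAG tags, with a wild-type unc-119 marker in an unc-119 (tm4063) background. CEH-58 is a homeodomain protein, and in whole animals a signal is an average over all cell types. There were 2 biological replicates of this 1 transgenic line, and control alignments and untagged worms were not analysed here. The depth of the libraries is unknown, so no counting interval can be given for a signal, and nothing beyond the replicate number shows how far the cultures were independent.

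RNase P is a ribonucleoprotein that removes the 5′ leader from precursor tRNAs, and its RNA subunit holds the catalytic centre. RNase MRP, a related enzyme with its own RNA, acts in ribosomal RNA processing. In human cells the RNase P RNA gene is transcribed by RNA polymerase III from promoter elements that lie upstream of the RNA, unlike tRNA genes, whose promoter elements lie inside the transcribed sequence.

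In the files' assembly (ce11), rpr-1 occupies I, 13463955 to 13464207, on the plus strand, and is 253 bp long. It lies inside ints-8, which encodes a subunit of the Integrator complex and runs on the opposite strand (I, 13455356 to 13470371, 10 exons). The RNA gene is in intron 5 of the longer ints-8 transcript, the third longest of 9 introns (2023 bp). The nearest base of exon 5 lies 555 bp beyond the RNA end, and that of exon 6 lies 1217 bp before the RNA start. A shorter ints-8 transcript starts in exon 5, 639 bp beyond the RNA end, so that its start and the start of rpr-1 point towards each other. No further annotated gene overlaps the 1 kb window. The genes next to ints-8 are Y48G10A.3, 221 bp away, and Y48G10A.6, 2511 bp away.

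Each of the 4 thresholded lists held 1 summit within 1 kb of rpr-1, and in each it lay at the RNA start. The conservative list, which keeps peaks reproducible between the replicates, placed the peak at I, 13463872 to 13463983, with its summit at 13463956 and a signal of 217.1, the authors' own value per peak. The optimal list, a longer list of 732 peaks called on pooled reads, held the same interval with the same pooled signal, so these lists are not independent. Replicate 1's own list gave a signal of 130.2 and replicate 2's own list a signal of 85.3. Both replicates thus called the peak without the other, each at the highest irreproducible discovery rate (IDR) score of 1000. As background, 3.08% of 8851 tRNA, snoRNA, snRNA and ncRNA genes had a conservative summit within 1000 bp, and 1.69% of the ncRNA genes, the annotated class of rpr-1, did. In the optimal list the share of the 8851 genes was 3.86%, and in the replicates' own lists 1.01% (replicate 1) and 0.565% (replicate 2). The gene was chosen with its peak known, and nothing is read from these shares.

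Candidate lists, which hold peaks before thresholding, added 3 weak summits inside the window. A candidate in exon 5 of ints-8, 591 bp beyond the RNA end, had a pooled signal of 20.4 and was in both the between-replicate and the pooled candidate list. A candidate in intron 5, 489 bp before the RNA start, had a pooled signal of 8.25 and was in the pooled candidate list only. The replicates' own candidate lists held the peak at the RNA start and no other summit within 1 kb. Just outside the limit of 1000 bp lay a candidate in exon 6 of ints-8, 1336 bp before the RNA start in replicate 1 (signal 21.6) and 1355 bp before it in replicate 2 (16.6).

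The summit coincided with the 5′ end of the RNA. In the conservative, optimal and replicate 2 lists it lay 1 bp downstream of the first base, and in replicate 1 it lay 12 bp downstream. The summits of the 2 inputs compared in each replicate's candidate list, which the files do not name, ranged from -5 to 20 bp around the RNA start. The conservative interval covered 83 bp upstream and the first 29 bp of the RNA. Replicate 1's interval covered 38 bp upstream and 23 bp of the RNA, and replicate 2's covered 104 bp and 106 bp. None of the 4 listed intervals reached the middle of the 253 bp gene. Most intervals in a list share 1 width (236 bp in the conservative list), which limits their reach from a summit, so nothing is read from this.

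**Figure D1:**
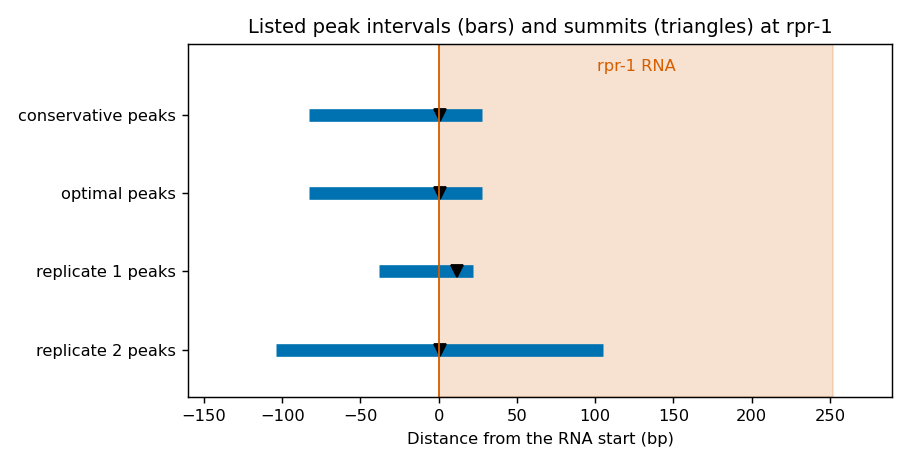
Listed peak intervals (bars) and summits (triangles) by distance from the RNA start of rpr-1 in bp, for the conservative and optimal lists and each replicate's own list; the shaded band is the 253 bp RNA. All 4 summits lie within 12 bp of the RNA start, and all 4 intervals extend upstream of it.

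The peak was narrower than most. Of the 483 conservative peaks, 7 (1.45%) were narrower than the usual 236 bp, and the rpr-1 peak, at 112 bp, ranked 5 from the narrowest. In replicate 1 it was 61 bp wide, the narrowest of 156 listed peaks, 4 of which were under the usual 230 bp. Replicate 2's list had no narrowed peaks, and the rpr-1 peak had the common width of 210 bp there. Width therefore differed between the replicates at the same summit region. The 7 narrow conservative peaks ranked 1, 2, 4, 5, 6, 8 and 85 by signal, so most were among the highest of the list. The 2 highest lay at snoRNA genes in introns of frm-7 and pxn-1. Apart from these and rpr-1, the narrow peaks had no tRNA, snoRNA or snRNA gene within 200 bp.

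Among conservative peaks, rpr-1 ranked 5 of 483 by signal and had 3.00 times the list's median of 72.4. Among the 105945 between-replicate candidates it ranked 61, and 56 of the 60 candidates above it were missing from the conservative list although all 60 had the highest IDR score. Whether a filter on regions, such as a blacklist, removed them is not stated in the labels or files, so the rank of 5 holds among listed peaks only. Signals near that rank were close to each other. The peak ranked just above, in an intron of tir-1, the worm SARM1 gene, had 1.01 times the rpr-1 signal. The peak ranked just below, 1159 bp from the nearest protein-coding gene, Y53G8AR.1, had 0.967 times. Over the 3 peaks above and the 3 below, the ratio ran from 1.31 at the snoRNA gene ZK994.7 in pxn-1 to 0.891. The last of these peaks lay 3941 bp from Y54F10AM.8, its nearest protein-coding gene. The others in this range were nearest to VY10G11R.1, at 10974 bp (1.03), and inside the kinase gene cmk-1 (0.957). On chromosome I the rpr-1 peak was the highest of 89 conservative peaks, ahead of a signal of 164.8 at the snoRNA gene ZK265.10. It was also the highest on that chromosome in the optimal list and in replicate 1's own list, but ranked 2 of 15 in replicate 2's own list, and 5 to 10 in the 4 candidate lists.

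**Figure D2:**
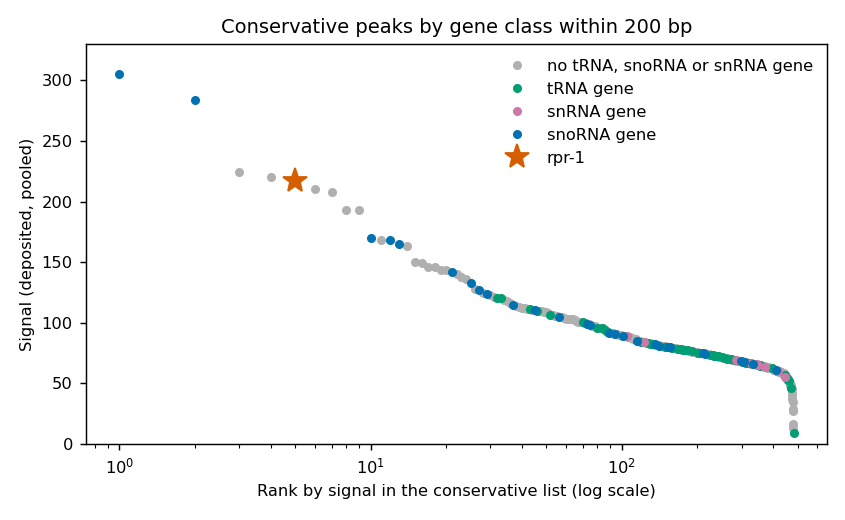
Pooled signal of the 483 conservative peaks against their rank on a log axis, coloured by the class of RNA gene within 200 bp of the summit. The star is rpr-1, at rank 5 with a signal of 217.1; both of the 2 highest peaks lie at snoRNA genes.

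The rank was lower in replicate 2. In replicate 1's own list rpr-1 ranked 6 of 156, between signals of 131.1 and 123.0, and had 2.28 times that list's median. In replicate 2's own list it ranked 11 of 92, between 89.1 and 77.5, and had 1.76 times the median. The signal was 1.53 times higher in replicate 1 than in replicate 2 (log2 ratio 0.61). Most conservative peaks also had more signal in replicate 1, with a median log2 ratio of 0.29 and quartiles of -0.01 and 0.55 over the 476 peaks with a candidate in both. The rpr-1 ratio was above that of 376 of these 476 peaks (79.0%). Signals are given as deposited, and a difference in library depth cannot be told apart from one in enrichment. The 2 replicate signals added up to 215.5, or 0.993 times the pooled 217.1, and the median of this ratio over the 476 peaks was 1.01.

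**Figure D3:**
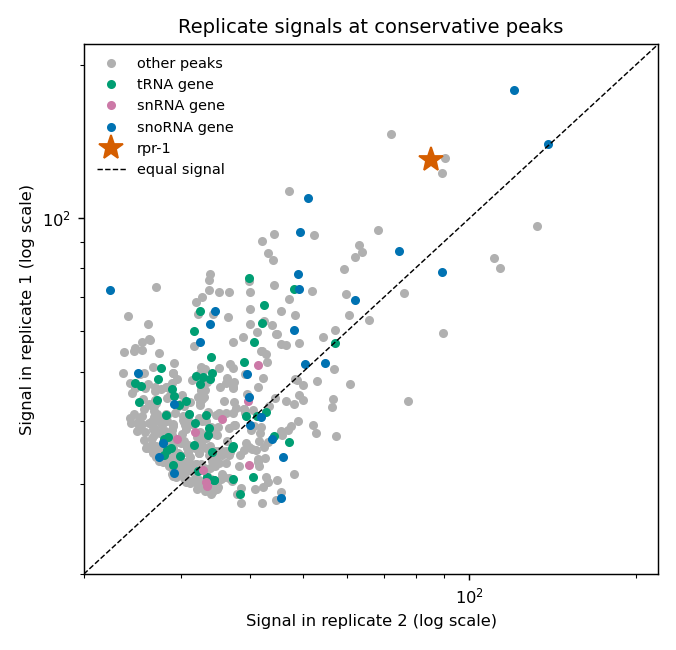
Signal in replicate 1 against replicate 2 at conservative peaks, both on log axes, with the line of equal signal; points are coloured by the class of RNA gene within 200 bp. The star is rpr-1, with 130.2 in replicate 1 and 85.3 in replicate 2.

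Each replicate's candidate list also gives the signals of 2 compared inputs, which the files do not name. At rpr-1 they were 70.5 and 58.1 in replicate 1's list, with a sum of 128.6 against its own signal of 130.2, and 45.1 and 43.9 in replicate 2's, with a sum of 89.1 against 85.3. Each pair of inputs is given in the list of 1 replicate, so their likeness is not read as replication. At rpr-1 the −log10 IDR was 3.53 between replicates, 3.65 in the pooled list, 3.67 in replicate 1 and 3.52 in replicate 2. The deposited −log10 q-value was 1.24 in the conservative list.

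Other candidates along ints-8 were all lower than the one at rpr-1. The between-replicate list had 12 candidates in the 15016 bp of ints-8, and without rpr-1 their pooled signals ran from 9.98 to 39.0, with a median of 20.6. In introns other than at rpr-1 there were 6, from 9.98 to 27.8. The highest of these had its summit in intron 1, and rpr-1 had 7.80 times its signal. Intron 1 is 51 bp long, so that candidate's interval also covered parts of exons 1 and 2, near the start of the longer transcript. The next highest, in intron 2, had a signal of 23.8. Exons held 5 candidates, from 19.05 to 39.0, the highest in exon 6, and rpr-1 had 5.56 times that signal. In replicate 1 the 7 other candidates of ints-8 ran from 13.8 to 21.6, against 130.2 at rpr-1. In replicate 2 the 5 others ran from 4.85 to 21.6, against 85.3. No other candidate in ints-8 was in a thresholded list, and the highest IDR score among the 11 others of the between-replicate list was 317. Of all 105945 between-replicate candidates, 0.456% were in the conservative list. The start regions of both ints-8 transcripts were thus without a listed peak.

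**Figure D4:**
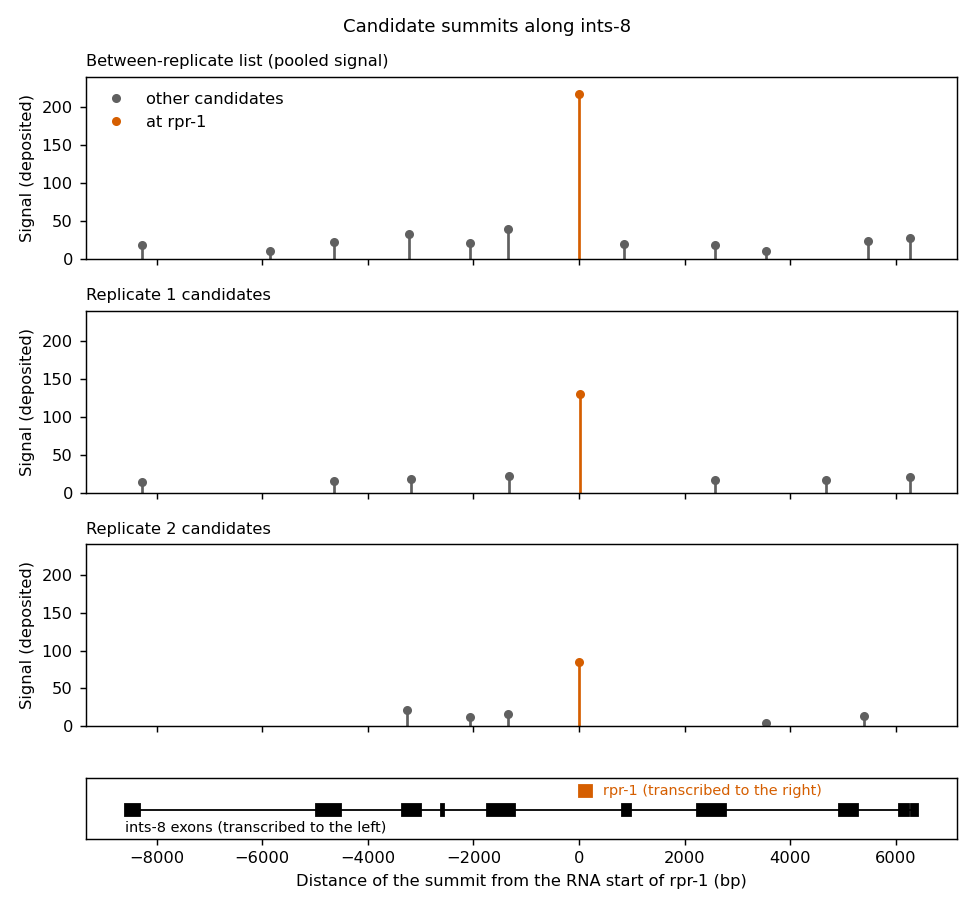
Signal of every candidate summit inside ints-8 by distance from the RNA start of rpr-1 in bp, for the between-replicate list (pooled signal) and each replicate's own candidate list, above a map of ints-8 exons (black) and rpr-1 (orange). The candidate at rpr-1 reaches 217.1, 130.2 and 85.3, and all others stay at or below 39.0.

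The surroundings of ints-8 held no other listed peak for more than 100 kb. The nearest other conservative summit on chromosome I was 123564 bp away, in ola-1, with a signal of 74.8. Listed peaks are sparse, with 89 conservative peaks on the whole chromosome. Their usual spacing was not measured, so this distance does not set rpr-1 apart. Within 50000 bp of the RNA start there were 59 other between-replicate candidates, with a median signal of 19.2 and a highest of 41.7. In the replicates' own lists the highest candidates of that flank reached 31.7 (replicate 1) and 23.2 (replicate 2).

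Sequence at the peak was unique and rich in G and C. All 223 31-mers of rpr-1 and all 82 of the conservative peak were found once in the genome, so reads of at least that length had a single exact place to align. GC content was 66.1% in the peak, 51.0% in the gene and 34.3% in the whole intron, against 35.4% in the genome. Within 100 bp of the summit it was 61.2%, higher than at 468 of the 483 conservative summits, whose median was 45.3%. The reference soft-masks 59.0% of the intron as repeats, and no base of rpr-1 or of the peak.

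Summits at other RNA genes lay at various distances from the 5′ end. At tRNA genes the median offset from the 5′ end was 23 bp downstream (quartiles 6.5 and 44, n = 55 summits), and 41 of the 55 summits lay within the gene. At snoRNA genes the median was -23 bp (quartiles -47.5 and 15.5, n = 28), and 20 of the 28 lay upstream. At snRNA genes it was 92 bp (n = 10), and 3 of the 10 lay beyond the gene end. Of the summits of these 3 classes, 21, 7 and 1, in this order, lay within 20 bp of a 5′ end, and none lay within 1 bp. The limit of 1 bp is the offset of rpr-1 itself, which its summit in replicate 1, at 12 bp, does not meet. Nothing is read from the count at that limit. The replicates' summits lay 11 bp apart at rpr-1 and further apart at some of these genes, so positions are known no better than that. At the snRNA gene sls-2.2, for example, they were shifted by 130 bp (replicate 1) and -60 bp (replicate 2) from the conservative summit.

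**Figure D5:**
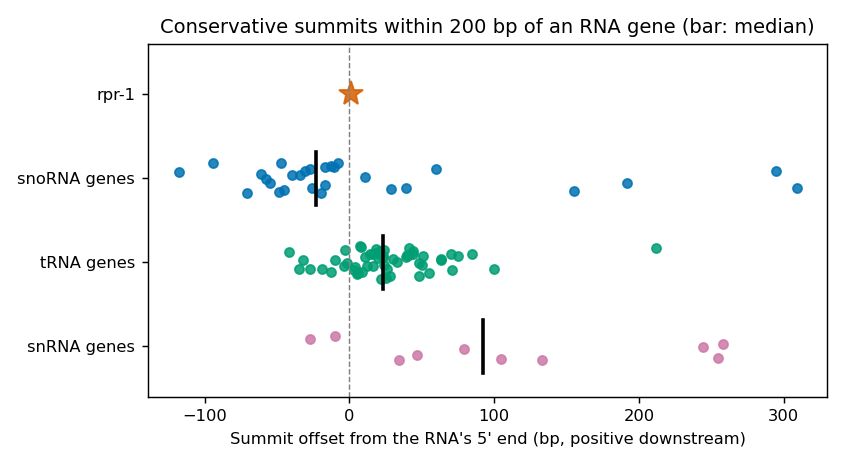
Distance of each conservative summit from the 5′ end of the RNA gene within 200 bp of it, in bp and positive downstream, for rpr-1 (star), snoRNA, tRNA and snRNA genes; black bars are medians and vertical scatter has no meaning. The rpr-1 summit lies at 1 bp, between the medians of -23 bp at snoRNA genes and 23 bp at tRNA genes.

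The RNA genes with replicate signals most like those of rpr-1 were mostly snoRNA genes, which guide RNA modification and made up 5.2% of the genes compared. Likeness was the distance between log2 signals over the 2 replicates, among 2498 RNA genes with a candidate within 200 bp in both. The gene was chosen by these same signals, so only genes at the highest peaks could be near it. Weak candidates count in the share of 5.2%, and nothing is read from the snoRNA genes found. The nearest was the snoRNA gene W03C9.9, with signals of 86.4 and 74.5 in replicates 1 and 2 (distance 0.62). Next came C51F7.3 and C51F7.4, which share a peak in frm-7 (178.8 and 120.7, distance 0.68), and ZK994.7 in pxn-1 (139.7 and 138.8, distance 0.71). T03F7.8 in cutl-18 came after these (78.6 and 89.1, distance 0.73), tied with the ncRNA gene T03F7.14, which overlaps it and shares its peak. Among the 180 RNA genes with a conservative summit within 200 bp (2.03% of 8851), rpr-1 ranked 4 by signal, behind C51F7.3, C51F7.4 and ZK994.7. It was the highest of the 77 ncRNA genes with such a summit (0.992% of that class), ahead of T03F7.14 (170.1).

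Signals were lower at mrpr-1 and yrn-1, which RNA polymerase III is known to transcribe, than at rpr-1. At tRNA genes, which it also transcribes, the 55 conservative peaks had a median signal of 73.5 and a highest of 120.4. The RNase MRP RNA gene mrpr-1 (II, 7200233 to 7200418, plus strand) had no peak in the conservative list or in either replicate's own list. Its candidate, 111 bp into the gene, had a pooled signal of 53.0 and ranked 676 of 732 in the optimal list. Replicate 1 gave 33.0 and replicate 2 gave 24.9 at mrpr-1, with summits 172 bp and 104 bp into the gene. The Y RNA gene yrn-1 (IV, 7499508 to 7499612, plus strand) had a conservative peak with a signal of 63.7 at rank 375, 58 bp into the gene, and none in the other 3 thresholded lists. Replicate 1 gave 41.2 and replicate 2 gave 27.2 at yrn-1, with summits at -13 bp and 102 bp from the 5′ end, so the position there is uncertain. In both replicates rpr-1, which was chosen by the height of its peak, was above both genes. All 156 31-mers of mrpr-1 and all 75 of yrn-1 were found once. The reference soft-masks 1.08% of mrpr-1 and 24.8% of yrn-1, against 0% of rpr-1. A cause of the lower signals was not tested.

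Protein-coding genes related to rpr-1 had no conservative summit in their promoter windows, from 1000 bp upstream to 200 bp downstream of a transcript start. These were 11 Integrator genes, 16 genes of RNA polymerase III, its factors and the promoter-binding complex SNAPc, and 14 genes listed for RNase P, RNase MRP and tRNA processing. The last list was set by gene symbol and includes the calcium channel gene cca-1 by mistake, which has no candidate there. Other members of that list may also not act in these processes. The count was 0 of 41 genes, for which 3 counts of that total set an upper limit of 7.32%, against 0.801% of all 19973 protein-coding genes. That limit lies above the share over all genes, so the count does not set these genes apart from others. The highest between-replicate candidates were at tbp-1, the TATA-binding protein (59.4), ints-7 (49.4) and the pseudouridine synthase gene pus-1 (39.0). At popl-1, the worm gene of the RNase P protein subunit POP1, the highest candidate had 27.6, and at ints-8 itself it had 27.8.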

How the data were processed

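Peak lists from anti-GFP ChIP-seq of 2 biological replicates were used as deposited, on assembly ce11, per the file headers and labels. The sources used here name no aligner or peak caller. The authors deposited a signal per peak, an irreproducible discovery rate (IDR) score on a log scale up to 1000, and −log10 q-values and −log10 IDR values. For all candidates the score could be recomputed from the −log10 IDR within 1 unit. The thresholded lists derive from the candidates' inputs and from a further file not analysed here. Total read counts were not used, so depth is unknown. For each replicate, the signal at a peak is that of its highest candidate overlapping the peak by 1 bp or more. At rpr-1 both values equal the 2 compared signals of the between-replicate list.

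All peaks lay within the 6 nuclear chromosomes of WBcel235, whose Ensembl release 115 genes were used. Distances run from the summit to the gene body and offsets from the 5′ end. Ranks, ratios and percentiles describe the lists, and no test was run. The distance, offset and rank rules were tested on simulated data. Named genes were rpr-1, ints-8 and its neighbours, mrpr-1, yrn-1, genes at the 3 peaks ranked above and below, and the 5 RNA genes nearest in log2 signal. Others were named after their values were seen. The gene, lists and rules were chosen with earlier results of these data known. Alternatives were other distances, lists, rankings and overlaps, and each replicate alone. Python 3.11.15, numpy 2.4.6, pandas 2.3.3 and matplotlib 3.10.9 were used.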

Additional observations from a re-analysis of the deposited data

How the results depend on the processing

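The number of summits within reach of rpr-1, 11 over the 8 lists, was 8 at 200 bp, 15 at 2000 bp and 11 by overlap of the peak with the window. Its rank of 5 of 483 stayed 5 among the peaks at the highest IDR score, and by IDR score it was tied with others down to rank 244. It ranked 6 of 732 in the optimal list, and 6 of 156 and 11 of 92 in the own lists of replicates 1 and 2. These lists differ in length, so their ranks are not compared as a change. Among the 476 conservative peaks with a candidate in both replicates, it ranked 5 by replicate 1's signal and 10 by replicate 2's. The offset of 1 bp ran from 1 to 12 bp with 1 replicate left out, and the midpoint of the interval lay at -27.5 bp. The ratio to the highest intronic candidate of ints-8, 7.80, was the same in the pooled list, which holds the same pooled signals for both candidates. It ran from 6.19 to 6.22 with 1 replicate left out, and was 5.56 against the whole gene body outside the window. The log2 ratio of the replicates was 0.61 under both other rules, which read the same 2 signals at rpr-1 and so could not differ. RNA genes with a conservative summit within 1000 bp numbered 273, against 342 in the optimal list and 180 within 200 bp. The causes were not tested beyond what each rule counts. No paired analysis was possible because there is 1 group. Unknown depth limits what the signals can show, and 2 replicates give no more than a range.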

Other observations

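The rank of rpr-1 differed between listed and candidate peaks. In the between-replicate candidate list it ranked 61 of 105945 by signal, and in replicates 1 and 2's own candidate lists 50 of 60288 and 88 of 58742. Of the 60 between-replicate candidates with more signal than rpr-1, 4 were in the conservative list and 56 were not, although all 60 had the highest IDR score. The reference soft-masks over 50% of the interval at 53 of these 56 candidates (94.6%), against 67 of the 483 conservative peaks (13.9%). On chromosome I, 5 candidates had more signal than rpr-1, and all 5 were among the unlisted. Whether a blacklist or another filter on regions was applied is not stated in the labels or files, and its part in the rank was not tested.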
